A study of Mus musculus with 6 samples.

Results

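The genes described here are 10 genes of fat cells, chosen by name with earlier results of these data known. They comprise 4 secreted products (*Adipoq*, *Lep*, *Retn* and *Cfd*), 4 genes that take up, carry or release fatty acids (*Lpl*, *Fabp4*, *Pnpla2* and *Lipe*), the lipid droplet gene *Cidec* and the transcription factor gene *Pparg*. Every probe with 1 of these names as its gene symbol was kept, which gave 13 of the 25697 probes on the array and 10 of its 18138 gene symbols. RNA was from cochlear tissue of 3 wild-type (WT) and 3 *Cmah*-null mice, hybridized to 1 Illumina MouseRef-8 v2 array per sample. Both groups were 12 months old and of the C57BL/6 strain, named C57BL/6J in the methods, and no treatment is named for either. The *Cmah*-null mice were knockout mice that lack CMP-Neu5Ac hydroxylase, the enzyme that makes the sialic acid Neu5Gc. The sex of the mice and any pooling of animals are not given in the sources used here, so p-values measure the spread among these 6 samples.

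Fat cells hold triglyceride in lipid droplets, release it as fatty acids through a series of lipases, and report their state to the rest of the body through secreted proteins called adipokines. Pparg is the factor that drives fat cell formation, and white and brown fat cells share it together with most genes of droplet storage. Fat is not a part of the cochlear duct itself, but it can lie in the soft tissue and the bone marrow around the inner ear.

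Between 13873 and 15223 probes had a detection p under 0.05 on an array, which here counts as detected. The single probe of *Cmah* lay near background. It was detected on 1 WT array and 2 *Cmah*-null arrays, with a log2 fold change (*Cmah*-null minus WT) of 0.26 and an adjusted p of 0.800 by limma, so it gives no check of the labels. Of 18 listed cochlear genes on the array, *Coch*, *Otos*, *Gjb2*, *Gjb6* and *Slc26a4* were detected. The hair cell genes *Myo7a*, *Otof* and *Ush1c* had a probe detected on all 6 arrays, whereas the hair cell genes *Atoh1*, *Pou4f3* and *Slc26a5*, and also *Otor* and *Tectb*, were detected on no array. The arrays fall into a set with fewer beads per probe (WT replicate 1 and *Cmah*-null replicates 1 and 2, medians 32 to 34) and a set with more beads (the other 3 arrays, medians 38 to 39). *Cmah*-null replicates 1 and 2 were the closest pair, as their log2 difference over probes had an SD of 0.13, against 0.31 to 0.64 for every other pair.

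Of the 13 probes, 7 were detected on all 6 arrays, 4 on some arrays, and 2 on none. No member passed an adjusted p of 0.05 in limma, nor did any of the 25697 probes, a share of 0%. The adjusted p of the members lay between 0.478 and 0.975. At an unadjusted p under 0.05, the probe of *Lep*, that of *Lpl* and 2 of the 3 *Pparg* probes passed, 4 of 13 beside 8.56% of all probes and 13.9% of those detected on every array of a group. With a change of at least 1.5-fold added to that p, which are the thresholds the study used, the *Lep* probe and the same 2 *Pparg* probes were lower in *Cmah*-null mice. That is 3 of 13 probes, beside 1.41% of all probes, and no member was higher, beside 1.3% of all probes. Among the 13975 probes detected on every array of a group the share called lower was 2.6% and the share called higher 2.38%, and 10 member probes belong to these. The called *Pparg* probe ILMN_1221594 belongs to them only through the WT arrays, where it was higher. In bulk tissue a smaller number of fat cells and less of an mRNA per fat cell cannot be told apart.

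**Figure D1:**
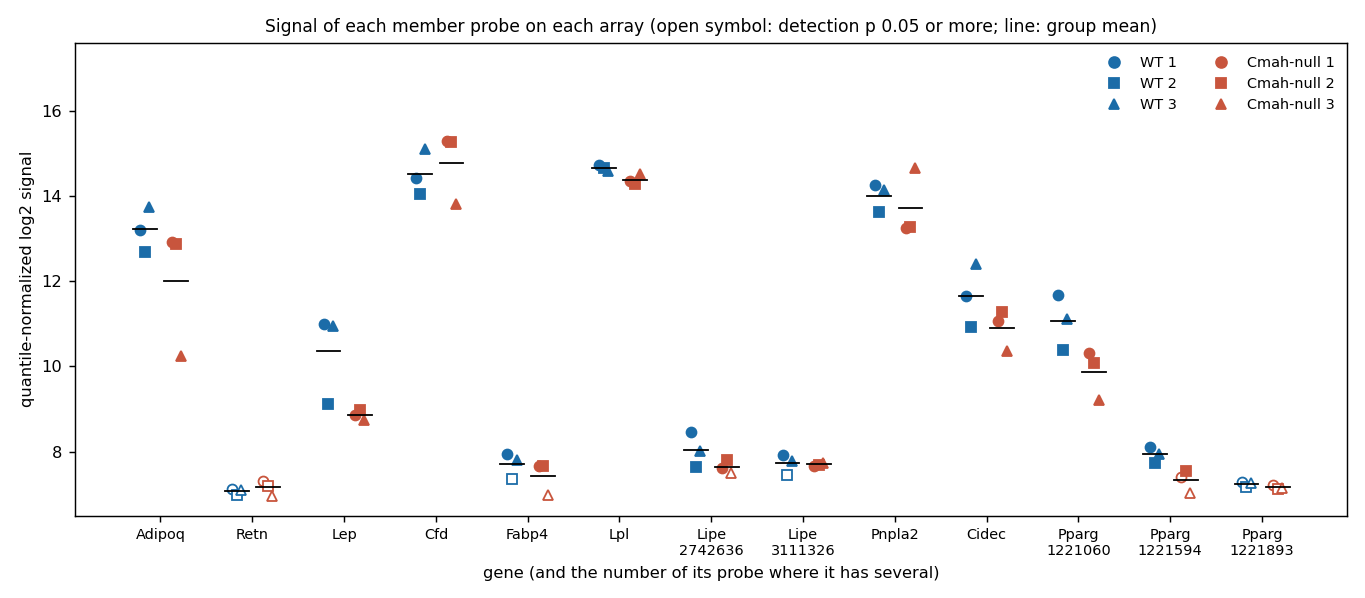
Quantile-normalized log2 signal of the 13 member probes on each of 6 arrays, with WT in blue, *Cmah*-null in red, group means as lines and open symbols where the probe was not detected. The 3 *Cmah*-null arrays lie below all WT arrays for *Lep*, for *Lpl* and for both detected *Pparg* probes, and *Cmah*-null replicate 3 alone drops to 10.24 for *Adipoq*.

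*Adipoq* encodes adiponectin, an abundant hormone of fat cells that raises insulin sensitivity. Its log2 signal was 13.21, 12.69 and 13.75 in WT replicates 1 to 3, and 12.93, 12.87 and 10.24 in *Cmah*-null replicates 1 to 3. The groups overlapped, and 1 *Cmah*-null array stood far below the other 5. The means were 13.22 ± 0.53 (SD, n = 3) and 12.01 ± 1.54 (SD, n = 3), a log2 fold change of -1.20 with a standard error of 0.78 and a limma adjusted p of 0.707. With arrays scaled to 1 median in place of quantile normalization the log2 fold change was -0.74. That is -1.04 relative to the median fold change of probes detected on all 6 arrays, which was 0.30 with this scaling. Under quantile normalization but without *Cmah*-null replicate 3 the *Adipoq* value was -0.32. The raw signal on that array was 1035 with a bead standard error of 24.1 over 50 beads, against raw signals of 5113 to 11111 on the other arrays. Among the 12410 probes detected on all arrays, 5.08% lay at least 1 log2 unit lower on *Cmah*-null replicate 3 than on every other array, and 0.25% at least 2 log2 units lower. Of the 7 member probes among them, *Adipoq* alone lay that far below, by either measure.

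*Lep* encodes leptin, through which fat cells signal the size of the fat store to the hypothalamus. The log2 signal of its probe was 10.99, 9.11 and 10.96 in WT mice and 8.86, 8.97 and 8.75 in *Cmah*-null mice. All *Cmah*-null arrays lay below all WT arrays, but WT replicate 2 was only slightly above them, and the WT arrays varied far more than the *Cmah*-null arrays. The log2 fold change was -1.49, a fold of 0.356, with a standard error of 0.52, an unadjusted p of 0.030 and an adjusted p of 0.550 in limma. It was -2.07 within the set with fewer beads and -1.28 within the set with more. The direction held without any 1 array, with values from -2.11 to -1.17, but the unadjusted p passed 0.05 only where WT replicate 2 was the array left out. It was 0.092 without WT replicate 1, 0.093 without WT replicate 3, and 0.070, 0.062 and 0.060 without *Cmah*-null replicates 1, 2 and 3. With median scaling the value was -1.17 with an unadjusted p of 0.062 in limma, or -1.47 relative to the median of probes detected on all 6 arrays.

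*Cfd* encodes adipsin, the serine protease complement factor D, which fat cells secrete. It gave log2 signals of 14.41, 14.05 and 15.11 in WT and 15.29, 15.26 and 13.81 in *Cmah*-null mice. *Cmah*-null replicates 1 and 2 were the highest arrays and *Cmah*-null replicate 3 was the lowest, so the groups overlapped fully. The log2 fold change was 0.26 with a standard error of 0.48 (limma adjusted p = 0.901). Within the bead sets it had opposite signs, 0.86 where beads were fewer and -0.77 where they were more, and it ranged from 0.01 without *Cmah*-null replicate 1 to 0.75 without *Cmah*-null replicate 3. The *Cfd* probe lies in the coding sequence, at base 667 of its transcript, and is shown because its signal put *Cmah*-null arrays at both ends of the order.

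*Cfd* probe ILMN_2835423: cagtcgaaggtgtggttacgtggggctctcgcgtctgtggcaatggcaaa

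*Retn* encodes resistin, a small secreted protein of mouse white fat cells. Its probe was not above background on any array, so it has no fold change. Its log2 values lay between 6.97 and 7.31.

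*Lpl* encodes lipoprotein lipase, which frees fatty acids from circulating triglyceride and is made in muscle and macrophages as well as in fat. Its log2 signal was 14.73, 14.65 and 14.58 in WT and 14.36, 14.29 and 14.51 in *Cmah*-null mice. The groups did not overlap, and the spread within each was small. Its log2 fold change of -0.27 had a standard error of 0.09, an unadjusted p of 0.026 and an adjusted p of 0.545 in limma, and did not reach 1.5-fold. The sign turned to 0.17 when the arrays were scaled to 1 median in place of quantile normalization, which also moved the median over the probes seen on all 6 arrays from 0.03 to 0.30. Relative to that median the *Lpl* value was -0.13.

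*Fabp4* encodes the fatty acid binding protein of fat cells, which carries fatty acids within the cell. Its log2 signal was 7.95, 7.35 and 7.81 in WT and 7.66, 7.66 and 6.98 in *Cmah*-null mice, and the probe was detected on 2 arrays of each group. The values lie near background and overlap between the groups, and their log2 fold change was -0.27 (standard error 0.25, limma adjusted p = 0.788). It was -0.04 without *Cmah*-null replicate 3 and -0.54 with the neqc background correction. Its probe holds 22% G and C bases, against 44% to 58% in the other member probes, and the part of base composition in its low signal was not tested.

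*Pnpla2* encodes adipose triglyceride lipase, which takes the first fatty acid from stored triglyceride. The log2 signal was 14.26, 13.63 and 14.14 in WT and 13.25, 13.28 and 14.66 in *Cmah*-null mice. *Cmah*-null replicate 3 was the highest array and *Cmah*-null replicates 1 and 2 were the lowest, the reverse of the order seen for *Cfd*. The log2 fold change was -0.28 with a standard error of 0.42 (limma adjusted p = 0.873), and it was -0.996 in the set with fewer beads and 0.77 in the set with more. Without *Cmah*-null replicate 3 it was -0.75 with an unadjusted p of 0.012, and with median scaling it was 0.21, or -0.09 relative to the median that this scaling gives.

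*Lipe* encodes hormone-sensitive lipase, which acts on diglyceride after the first fatty acid has been removed. Probe ILMN_2742636, in its coding sequence, had log2 signals of 8.46, 7.65 and 8.01 in WT and 7.61, 7.80 and 7.502 in *Cmah*-null mice. Probe ILMN_3111326, which starts at base 2478 of another RefSeq transcript, gave 7.93, 7.46 and 7.79 in WT and 7.67, 7.70 and 7.74 in *Cmah*-null mice. Both overlapped between the groups and lay near background, and each was detected on 5 arrays. Their log2 fold changes were -0.40 (standard error 0.22, limma adjusted p = 0.663) and -0.02 (standard error 0.13, limma adjusted p = 0.975). The former was -0.19 without WT replicate 1 and -0.60 without WT replicate 2, with unadjusted p of 0.272 and 0.023, and -0.89 with the neqc background correction, with an unadjusted p of 0.098. The coding probe is given here because it carried the larger difference of the 2.

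*Lipe* probe ILMN_2742636: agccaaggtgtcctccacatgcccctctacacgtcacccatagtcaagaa

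*Cidec* encodes a protein of the droplet surface that lets lipid droplets fuse and grow. Its log2 signal was 11.66, 10.93 and 12.40 in WT and 11.06, 11.28 and 10.36 in *Cmah*-null mice. The groups overlapped through WT replicate 2, which lay below *Cmah*-null replicates 1 and 2. The log2 fold change was -0.77 with a standard error of 0.42 (limma adjusted p = 0.670). Its value was -0.49 within the set with fewer beads and -1.31 within the set with more. It was -1.13 without WT replicate 2, with an unadjusted p of 0.031 in limma, and -0.40 without WT replicate 3, with an unadjusted p of 0.328. With median scaling it was -0.29, with an unadjusted p of 0.571, or -0.58 relative to the median that this scaling gives.

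*Pparg* was read by 3 probes spread along its transcript, which are shown because they gave 3 different levels of evidence. The gene spans 115360879 to 115490404 on chromosome 6 of GRCm38. Probe ILMN_1221060 starts at base 1436 of the RefSeq transcript, probe ILMN_1221594 at base 287, and probe ILMN_1221893 at base 22. The first and second lie in sequence shared by the Pparg isoforms. The third holds the start codon of the isoform Pparg2, marked in capitals, which is the isoform particular to fat cells.
ILMN_1221060: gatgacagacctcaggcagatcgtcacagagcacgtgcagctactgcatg
ILMN_1221594: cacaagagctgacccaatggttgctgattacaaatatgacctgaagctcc
ILMN_1221893: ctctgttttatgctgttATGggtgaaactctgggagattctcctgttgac

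Probe ILMN_1221060 gave log2 signals of 11.67, 10.39 and 11.12 in WT and 10.32, 10.09 and 9.21 in *Cmah*-null mice. Every *Cmah*-null array lay below every WT array, though WT replicate 2 was barely above *Cmah*-null replicate 1. The means were 11.06 ± 0.64 and 9.87 ± 0.59 (SD, n = 3 each), a log2 fold change of -1.19, a fold of 0.439, with a standard error of 0.42, an unadjusted p of 0.032 and an adjusted p of 0.555 in limma. The value was close in both bead sets, -1.46 and -1.55. Its unadjusted p passed 0.05 without WT replicate 2 and without *Cmah*-null replicate 1, and was 0.091 and 0.081 without WT replicates 1 and 3, and 0.053 and 0.066 without *Cmah*-null replicates 2 and 3. With median scaling the value was -0.76 with an unadjusted p of 0.210 in limma, or -1.06 relative to the median that this scaling gives.

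Probe ILMN_1221594 gave 8.12, 7.73 and 7.96 in WT and 7.40, 7.55 and 7.03 in *Cmah*-null mice on the log2 scale. It was detected on all 3 WT arrays and on 1 *Cmah*-null array, and again the groups did not overlap. The log2 fold change was -0.61, a fold of 0.656, with a standard error of 0.17, an unadjusted p of 0.012 and an adjusted p of 0.478 in limma. Its unadjusted p stayed under 0.05 without any 1 array, between 0.011 and 0.040, but the change was under 1.5-fold without WT replicate 1, at -0.52, and without *Cmah*-null replicate 3, at -0.46. With the neqc background correction it was -1.46. The Pparg2 probe, ILMN_1221893, was not above background on any array, with log2 values between 7.13 and 7.28, so the genotypes cannot be compared on it. *Pparg* is also among the genes that the study listed from these same samples, so its lower signal here is no independent evidence.

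**Figure D2:**
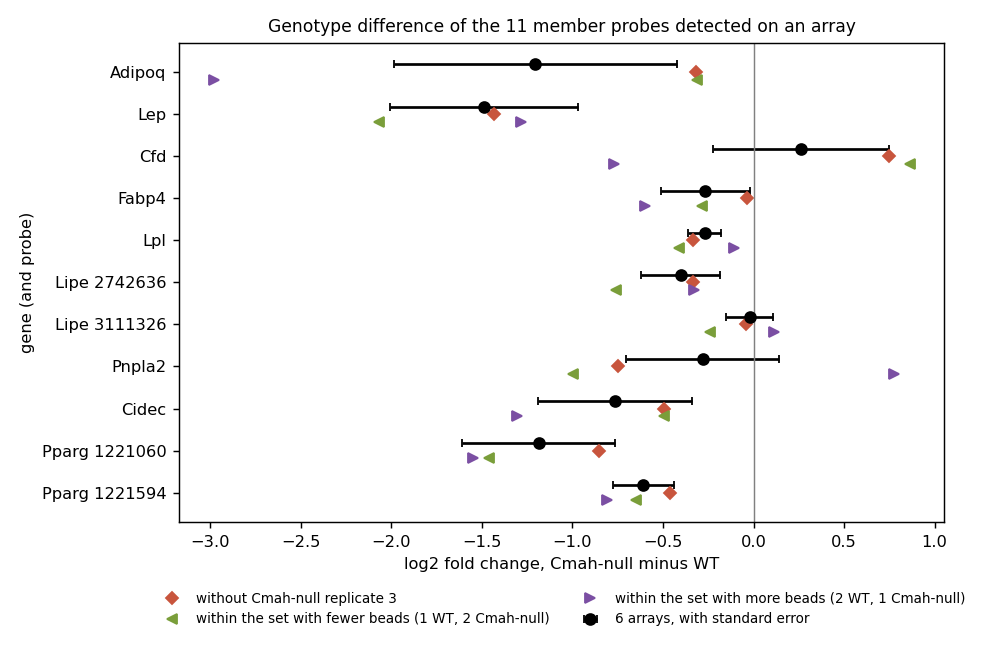
Log2 fold change (*Cmah*-null minus WT) of the 11 member probes detected on at least 1 array, with its standard error, beside the value without *Cmah*-null replicate 3 and the values within each set of arrays by bead number. *Lep* and both *Pparg* probes lie below 0 in every version, while *Cfd* (0.86 and -0.77) and *Pnpla2* (-0.996 and 0.77) take opposite signs in the 2 sets.

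Over the 11 member probes detected on at least 1 array the median log2 fold change was -0.40, with 10 below 0. With the fitted values of the 2 probes that were never above background included, the median of the 13 was -0.28, beside 0.002 over all probes. Over the 10 member probes detected on every array of a group it was -0.51, with 9 below 0, beside 0.01 over all 13975 such probes. *Pparg* ILMN_1221594 and *Lipe* ILMN_2742636 passed this filter only through the WT arrays, where their mean was higher. The filter thus favours values below 0 for them, while the median of the 13 does not use it. All *Cmah*-null arrays lay below all WT arrays for 4 of the 13 probes, beside 7.33% of all probes and 8.83% of those detected on every array of a group, and above them for none, beside 9.11% and 11.4%. That count of 4 reached 10 when WT replicate 2 was left out, and was 4 or 5 without any other array. Groups separate more readily on 5 arrays than on 6, and no share over all probes was taken for counts on 5 arrays. The counts on 5 arrays are therefore not read as a result about the members. The count above was 2 without *Cmah*-null replicate 3, for *Cfd* and for the *Retn* probe that was not above background. WT replicate 2 was the lowest WT array for 6 of the 7 member probes detected on all arrays, beside 24.4% of all probes detected on 6 arrays. *Cmah*-null replicate 3 was the lowest of all 6 arrays for 5 of the 7, beside 31.7%. The count of member probes lower at 1.5-fold with p ranged from 0, without WT replicate 1, to 5, without WT replicate 2, beside 1.78% and 0.926% of all probes. It was 1 without WT replicate 3, 2 without *Cmah*-null replicate 1, and 1 without *Cmah*-null replicate 2 or 3. The shares of all probes called lower were 2.04%, 1.32%, 1.58% and 1.82% in that order.

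**Figure D3:**
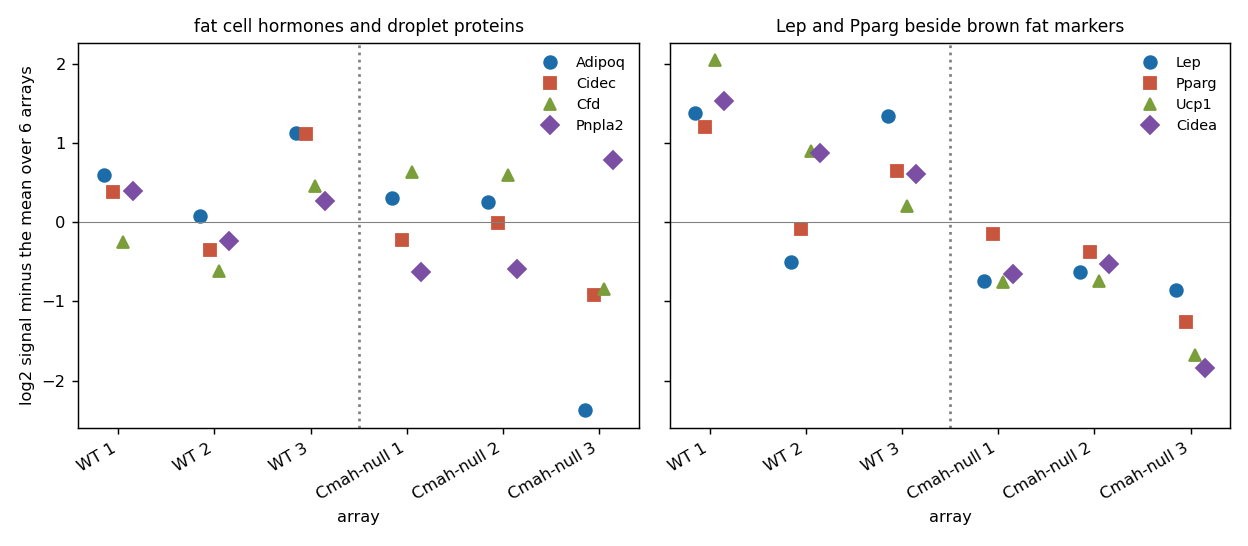
Log2 signal of single probes minus the probe's own mean over the 6 arrays, with the fat cell genes *Adipoq*, *Cidec*, *Cfd* and *Pnpla2* on the left, and *Lep* and *Pparg* (ILMN_1221060) beside the brown fat genes *Ucp1* and *Cidea* on the right. The genes on the left scatter in different directions on *Cmah*-null replicate 3, where *Adipoq* is lowest and *Pnpla2* highest, whereas all 4 on the right are lower on every *Cmah*-null array than on every WT array. All 4 on the right were called lower at 1.5-fold with p and none on the left was, so this contrast follows from the choice of genes.

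The members did not share 1 pattern across the arrays. The probes most like *Adipoq*, by the root mean square difference of centred log2 values over the 6 arrays, among 10880 symbols, were those of *Mgst1* (0.287), a microsomal glutathione transferase, and *Sc4mol* (0.298), an enzyme of cholesterol synthesis. They were followed by *Elovl4*, *Scn1a*, *Tmem45b*, LOC100047583, *BC049806*, *Myl6*, *Ech1* and *Rps3* (0.368). All 10 had their lowest value on *Cmah*-null replicate 3, and none is a fat cell hormone or droplet gene. The nearest members were *Pparg* at rank 306 (0.641) and *Cidec* at rank 387 (0.671), followed by *Cfd* at 1115, *Lep* at 1923, *Lipe* at 2228 and *Lpl* at 4498. *Pnpla2* stood at rank 9589 with a difference of 1.44, near the far end of the order.

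The related genes of fat were read from 6 further lists, with 75 genes on 103 probes, and 61 genes were detected on each array of at least 1 genotype. By the rule of 1.5-fold with unadjusted p, 11 probes of 10 genes were lower in *Cmah*-null mice, 10.7% of the 103, and 1 probe was higher, 0.971%, beside 1.41% and 1.3% of all probes. Of probes detected on every array of a group, 2.6% were called lower and 2.38% higher. The 6 lists were chosen with earlier results of these data known. None of the 103 probes passed an adjusted p of 0.05 in limma, where the 11 lower probes had adjusted p between 0.397 and 0.580. The median log2 fold change of the 103 probes was -0.13.

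Among the other adipokines, 2 of 14 probes were lower and none higher. *Nampt*, an enzyme of NAD synthesis that is also secreted, had log2 signals on its called probe of 9.06, 10.001 and 9.91 in WT and 9.04, 8.64 and 8.87 in *Cmah*-null mice, a log2 fold change of -0.81, and its other probe, which overlapped, was at -0.29. *Nrg4*, a growth factor secreted mainly by brown fat, had 9.62, 8.90 and 9.22 in WT and 8.53, 8.45 and 8.20 in *Cmah*-null mice, a log2 fold change of -0.85. On both called probes, all *Cmah*-null arrays lay below all WT arrays. *Nnat*, the gene with the largest difference upward, was at 0.54 and overlapped between the groups. Of the adipokine receptors none of 8 probes was called. *Adipor2*, a receptor of adiponectin, was at -0.38, *Adipor1* at -0.07 and *Cdh13*, which binds adiponectin at the cell surface, at 0.03 and -0.25 on its 2 probes. Neither *Lepr* probe was detected on all arrays of a group, so the leptin receptor could not be compared.

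Of the droplet coat and caveola genes, 2 of 14 probes were lower and none higher. *Cav1*, which encodes the main coat protein of caveolae, had log2 signals of 13.24, 13.10 and 13.43 in WT and 12.62, 12.71 and 11.94 in *Cmah*-null mice, a log2 fold change of -0.83. *Cidea*, the relative of *Cidec* that is abundant in brown fat, was at -2.01, the largest difference among the related genes. The perilipins, which coat the droplet, did not pass the rule. *Plin*, the perilipin of fat cells, was at -0.52, *Adfp* at -0.59, *M6prbp1* at -0.08 and *S3-12* at -0.13, and all 4 overlapped between the groups. *Bscl2*, which encodes seipin, had the largest difference upward, 0.29.

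Of the lipolysis genes, 3 of 20 probes were lower and none higher. *Mgll*, the lipase that removes the last fatty acid, was read by 3 probes. The called probe had log2 signals of 8.80, 8.36 and 8.87 in WT and 7.95, 8.04 and 7.93 in *Cmah*-null mice, a log2 fold change of -0.71. Its 2 brighter probes overlapped between the groups and were not called, both at -0.60, with unadjusted p of 0.097 and 0.081. *Aqp7*, the channel through which fat cells release glycerol, gave -0.92 and -0.86 on its 2 called probes, which were detected on all arrays. Of its other 2 probes, 1 was detected on 4 arrays and lay at -0.13, and 1 was not above background on any array. *G0s2*, the inhibitor of the lipase of *Pnpla2*, was at -0.94 with an unadjusted p of 0.066 and adjusted p of 0.609 in limma. *Abhd5*, which activates that lipase, was at -0.22, and *Gpr109a*, the receptor that holds lipolysis back, had the largest difference upward, 0.39.

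Of the genes for fatty acid uptake and storage, 3 of 23 probes were lower and none higher. *Dgat2*, the enzyme that completes triglyceride, had log2 signals of 14.16, 13.07 and 13.11 in WT and 11.86, 12.18 and 12.58 in *Cmah*-null mice, a log2 fold change of -1.24. *Acsl1*, which activates fatty acids, was at -0.93. *Gpihbp1*, which anchors lipoprotein lipase to the wall of capillaries, had 10.43, 10.09 and 10.31 in WT and 9.28, 9.12 and 9.74 in *Cmah*-null mice, a log2 fold change of -0.90. All 3 were lower on every *Cmah*-null array than on every WT array. Of the detected genes of this list, 14 lay below 0 and 1 above, *Lmf1* at 0.23. The fatty acid transporter gene *Cd36* was not detected on all arrays of either group.

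Of the detected transcription factor genes of fat cells, 10 lay above 0 and 3 below. Of 24 probes in all, 1 was lower and 1 was higher by the rule. *Ppargc1a*, the coactivator of Pparg that drives mitochondrial genes, had log2 signals of 11.14, 11.02 and 11.19 in WT and 10.59, 10.90 and 9.89 in *Cmah*-null mice, a log2 fold change of -0.65. *Klf5*, a zinc finger factor that is also strongly expressed in epithelia, had 11.59, 11.60 and 12.06 in WT and 12.30, 12.16 and 12.98 in *Cmah*-null mice, a log2 fold change of 0.73.

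**Figure D4:**
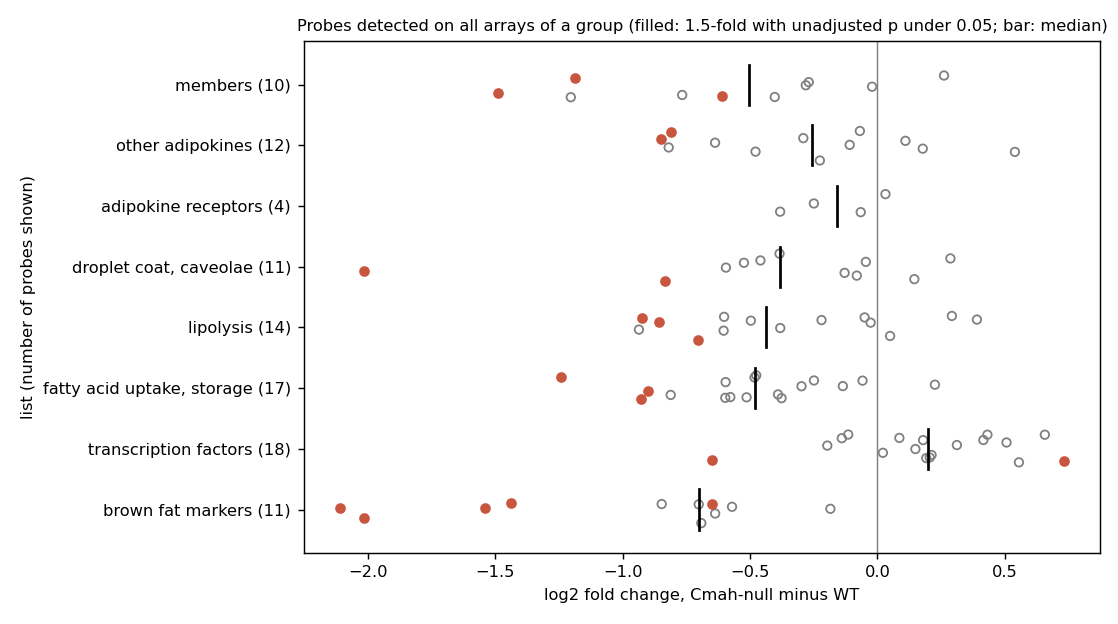
Log2 fold change (*Cmah*-null minus WT) of every member probe, related fat probe and brown fat probe that was detected on all arrays of a group, with probes past 1.5-fold and an unadjusted p of 0.05 filled and the list median as a bar. Every list but the transcription factors has its median below 0, and *Ucp1* (-2.11) and *Cidea* (-2.01) lie farthest out.

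Brown fat markers were also read, since brown fat shares most of these genes with white fat. Of 11 brown fat genes on 14 probes, 5 probes were lower, *Ucp1*, *Cidea*, *Cox7a1*, *Cox8b* and *Ppargc1a*. The shares called lower were 1.41% of all probes and 2.6% of those detected on every array of a group. All 9 detected genes lay below 0 by their brightest probe, though *Elovl3* counts as detected through the WT arrays alone. By their brightest probes, *Cpt1b* and *Otop1* overlapped between the groups and were at 0.49 and 0.28 within the set with more beads. *Cidea* and *Ppargc1a* also stand in the lists above, and *Ucp1*, *Cox7a1*, *Cox8b*, *Cpt1b* and *Ppargc1a* are among the genes that the study listed from these samples. *Ucp1*, the uncoupling protein through which brown fat makes heat, had log2 signals of 13.63, 12.48 and 11.79 in WT and 10.82, 10.84 and 9.90 in *Cmah*-null mice. No *Cmah*-null array reached a WT array, and the log2 fold change was -2.11 with a standard error of 0.52 (limma adjusted p = 0.433). The summed linear signal of the 11 genes was 49998 to 84601 in WT mice and 20063 to 30541 in *Cmah*-null mice, and the defining genes *Dio2* and *Prdm16* were detected on no array. The brightest gene of this sum in WT mice was *Cox8b*, at log2 14.58 to 14.95. The study lists *Cox7a1* and *Cox8b* under cardiac muscle contraction too, so the sum is not a measure of brown fat alone. The part of muscle in it was not tested. The count of 5 was 8 without *Cmah*-null replicate 3, 3 without WT replicate 2 or 3, and 2 with median scaling. The shares of all probes called lower were 1.82%, 0.926%, 2.04% and 0.307% in that order.

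The log2 difference of *Ucp1* and *Adipoq* sets the brown fat gene against the gene of all fat cells on the same array. In WT mice it was 0.41, -0.21 and -1.96, and in *Cmah*-null mice it was -2.11, -2.03 and -0.34. The mean difference of -0.91 between the groups had a two-sided exact permutation p of 0.2, where the smallest p that 3 against 3 arrays allow is 0.1. It was -0.41 without WT replicate 1 and -1.59 without WT replicate 3. The values of the 2 groups overlapped. The like difference of *Acta1*, the actin of skeletal muscle, and *Adipoq* was 2.60, 3.29 and 1.94 on the WT arrays. On the *Cmah*-null arrays it was 2.70, 2.69 and 5.64. The mean difference between the groups was 1.07, with a two-sided exact permutation p of 0.4. Without *Cmah*-null replicate 3 it was 0.08. The *Acta1* probe lay near the top of the scale on every array, at log2 15.56 to 15.98, so this difference is not interpreted.

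Markers of other tissues were read beside these genes, with medians taken over the probes of a list that were detected on all arrays of at least 1 genotype. The member probes so detected had a median of -0.51, with *Pparg* ILMN_1221594 and *Lipe* ILMN_2742636 among them through the WT arrays alone. Those of muscle had a median of -0.65, and all 12 detected muscle genes lay below 0 by their brightest probe. Among these, *Myh2* was in effect unchanged, at -1.2e-05. *Acta1* (-0.14), *Atp2a1* (-0.14) and *Pvalb* (-0.24) lay near the top of the scale, at log2 15.02 or higher on every array. Both probes of the myoglobin gene *Mb* were the only called probes among 16 of muscle, and the summed muscle signal was 256297 to 419753 in WT and 265387 to 276405 in *Cmah*-null mice. All 7 detected genes of neurons and myelin lay below 0, with a median of -0.44 and a summed signal of 37164 to 97210 in WT and 43271 to 44892 in *Cmah*-null mice. All 8 detected genes of bone and cartilage did so too, with a median of -0.28 and a summed signal of 29309 to 135183 in WT and 43325 to 46828 in *Cmah*-null mice. All 4 detected genes of the sebaceous gland and epidermis list, *Krt5*, *Krt10*, *Krt14* and *Lor*, lay above 0, with a median of 0.90. The summed signal of this list was 29031 to 111766 in WT and 95176 to 107252 in *Cmah*-null mice. Its genes *Mc5r* and *Scd3* were detected on no array, so the median is of epidermal genes and does not read sebaceous gland. The summed endothelial signal was 4880 to 5202 in WT and 3331 to 3955 in *Cmah*-null mice, without overlap, although none of its 6 probes was called and 3 of its 5 genes lay below 0. Of the detected genes, 5 of 7 of preadipocytes and stroma, 4 of 7 of macrophages and 6 of 9 of marrow and blood lay below 0. No probe was called among the markers of preadipocytes and stroma (8 probes), macrophages (12), marrow and blood (12), bone and cartilage (15), sebaceous gland and epidermis (6) or neurons and myelin (14). Of the 29 cochlear probes, 1 was higher, that of *Ush1c* at 0.97. Among sex-linked genes, *Ddx3y* was lower at -1.77, and the Y-linked *Eif2s3y* had log2 signals of 10.02, 11.35 and 7.16 in WT and 7.31, 7.07 and 9.58 in *Cmah*-null mice, so it was high on 2 WT arrays and 1 *Cmah*-null array. The part of tissue make-up or sex in the values of the members was not tested. Bead number was examined only by the values within each bead set and by a block for the set in the fit. With that block the log2 fold change was -1.65 for *Adipoq*, -1.68 for *Lep* and -1.51 and -0.73 for the detected *Pparg* probes. It was -0.11 for *Pnpla2* and 0.05 for *Cfd*.

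The RefSeq promoter table (GRCm38.p6) held 12 start sites of the member genes, and the 250 bases before each were searched on both strands for TTGCGCAA, the palindrome bound by C/EBP factors, its looser form TTGCNNAA, which includes it, the CCAAT box, the nuclear receptor half-site AGGTCA, and the TATA box as TATAAA. The promoters of *Lep* and of the Pparg2 start are shown, as *Lep* and *Pparg* had lower signal. The lower *Pparg* signal was on probes in sequence shared by the isoforms, and none was measured for Pparg2. The other *Pparg* starts are not shown. TTGCGCAA was found before *Lep* alone, ending 47 bases before the start, and in 0.164% of 32851 promoter windows. CCAAT was found in 3 member windows, of *Adipoq* and *Pparg*, and in 33.8% of all windows, and TTGCNNAA in 3 member windows and 9.56%. AGGTCA lay before 2 *Pparg* starts and in 14% of all windows. TATAAA lay before 1 *Pparg* start and in 12.4%. Capitals mark TTGCGCAA in the *Lep* promoter (chr6:29059971-29060220, plus strand) and CCAAT in that of Pparg2 (chr6:115421816-115422065, plus strand).
*Lep*: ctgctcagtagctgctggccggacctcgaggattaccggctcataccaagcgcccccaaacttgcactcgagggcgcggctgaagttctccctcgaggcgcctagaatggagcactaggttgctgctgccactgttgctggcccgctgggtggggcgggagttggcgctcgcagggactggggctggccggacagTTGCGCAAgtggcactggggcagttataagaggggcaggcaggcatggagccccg
*Pparg*: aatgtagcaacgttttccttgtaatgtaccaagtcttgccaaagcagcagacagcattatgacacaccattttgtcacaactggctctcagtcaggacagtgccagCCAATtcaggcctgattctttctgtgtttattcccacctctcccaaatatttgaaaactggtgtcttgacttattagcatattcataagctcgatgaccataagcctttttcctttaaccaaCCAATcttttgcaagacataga

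The Pparg2 promoter lies next to the probe ILMN_1221893, whose first 22 bases match the genome from 115422094 to 115422115, 28 bases after the start at 115422066. This is the probe that was not above background on any array. The motif counts are descriptions of letters, and no binding was measured. *Cebpb*, a C/EBP factor gene, had log2 signals of 12.70, 12.39 and 12.78 in WT and 12.85, 12.89 and 14.10 in *Cmah*-null mice, a log2 fold change of 0.66 with a limma adjusted p of 0.668. *Cebpa* overlapped between the groups at -0.14, with a limma adjusted p of 0.841.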

How the data were processed

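Total RNA of 3 WT and 3 *Cmah*-null cochlear samples was hybridized to Illumina bead arrays. Per the file headers, the deposited raw table holds intensity values, the average bead signal of each probe without normalization, with its bead standard error and the number of beads. The authors deposited a detection p-value for every probe and array as well. The authors' second table holds log2 values after quantile normalization, which equalled quantile-normalized log2 signals to within 5e-07. Its columns name the *Cmah*-null group "old". Another 12 columns of per-sample values were not used, nor were the authors' fold changes and local pooled error statistics, which hold their own comparison.

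The members and the related gene lists were chosen with earlier results of these data known. Genotypes were compared on the log2 values in R 4.3.3 with the functions lmFit and eBayes of limma 3.58.1, in a two-sided test without covariates. P-values were adjusted by the Benjamini-Hochberg method across the 25697 probes, and the code was tested on simulated data. Probes were also counted at 1.5-fold with an unadjusted p under 0.05. Single values were compared by an exact permutation test. A probe detected on no array is given no fold change of its own, but its fitted value counts in medians over all probes of a list. The genes named are all 10 members, the gene of each related list with the largest difference in each direction by its brightest probe, every gene called at 1.5-fold with p, and the 10 symbols closest to *Adipoq*. The perilipins, *Adipor1*, *Lepr*, *Abhd5*, *Cd36*, *Cebpa*, *Cebpb*, *Cpt1b* and *Otop1* were named after their values were seen. Of the marker lists of other tissues, only called genes, *Eif2s3y*, the genes that check the tissue and a few others are named. Those others are the genes of the sebaceous gland and epidermis list, and *Myh2*, *Acta1*, *Atp2a1* and *Pvalb* of muscle. List signals were summed over all genes of a list on the linear scale of the normalized values, with the brightest probe of each.

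The alternatives were neqc (offset 16), scaling to 1 median, only probes seen on 3 or more arrays, a block for the replicate number or the bead set, eBayes with trend and robust, *Cmah*-null replicates 1 and 2 averaged, 1 probe per gene, and each array left out in turn. Precision is limited by the number of arrays. Probe sequences are those of the deposited table. Its probe coordinates are of a build that is not named and were not used, since those of 6 of the 12 placed member probes lie outside the gene's span in GRCm38. Gene spans and promoters are from RefSeq (GRCm38.p6). Plots were made in Python 3.11.15 with matplotlib 3.10.9.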

Additional observations from a re-analysis of the deposited data

How the results depend on the processing

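Median scaling gave 1 member probe lower at 1.5-fold with p (*Pparg* ILMN_1221594) in place of 3, and 1 related probe lower and 7 higher in place of 11 and 1. All *Cmah*-null arrays then lay below all WT arrays for 1 member probe in place of 4. No share over all probes was taken for that count. Median scaling turned *Lpl* to 0.17 and *Pnpla2* to 0.21, and over all probes it called 79 lower and 2409 higher, against 363 and 334. The neqc correction gave 5 related probes higher, while the share of all probes called higher went from 1.3% to 3.05%, and the bead set block gave 17 lower, while the share of all probes called lower went from 1.41% to 3.4%. With each array left out in turn, member probes with all *Cmah*-null below all WT ranged from 4 to 10 and those above from 0 to 2. No share over all probes was taken beside these counts, so they are not read as a result about the members. By the rule of 1.5-fold with p, member probes lower ranged from 0 to 5 and related probes higher from 0 to 4. The share of all probes called lower ranged from 0.926% to 2.04% in these fits, and the share called higher from 0.743% to 2%. Related probes lower ranged from 9 to 12. *Lipe* ILMN_3111326 ranged from -0.15 to 0.080, and was 0.080 without WT replicate 1 and 0.009 without WT replicate 3. The cause was not tested.

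With *Cmah*-null replicates 1 and 2 averaged, both *Pparg* probes stayed called and *Lep* did not (unadjusted p of 0.067). The replicate numbers did not pair the samples, as deviations of same-numbered samples correlated at 0.02, -0.17 and 0.01 over 12410 probes. With the replicate block, the 3 member probes were still lower, the *Lep* value was -1.49, and 0 probes passed an adjusted p of 0.05, while 410 were lower and 401 higher by the other rule. With the bead set block 3 probes of the array passed an adjusted p of 0.05, none of them a member. Probes near background, those of *Fabp4*, *Lipe* and *Pparg* ILMN_1221594, are limited by signal, and a change there is compressed on the log2 scale without background correction.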
